A study of Mus musculus with 4 samples.

Results

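Il6 Tnfaip6 fibroblasts were cells of mouse bone and bone marrow that carried a programme of cytokine, chemokine, prostaglandin and hyaluronan genes together with the fibroblast receptor Pdgfra. They were selected on their own transcripts. A kept cell was a member when it held at least 1 unique molecular identifier (UMI, 1 counted mRNA molecule) of at least 4 of the 6 genes Il6, Tnfaip6, Ccl7, Ptgs2, Has1 and Plau (called rule genes below) and at least 1 UMI of Pdgfra. It also had to hold fewer than 2 UMIs of Pi16 and to have fewer than 3 of the 5 genes Scg3, Sema3e, Islr2, Tppp3 and Ociad2 detected, gates that set it apart from other fibroblasts. The rule found 345 members among 15670 kept cells, 241 of 10063 in the young mouse (2.39%, exact 95% interval 2.11 to 2.71) and 104 of 5607 in the old mouse (1.85%, 1.52 to 2.24). Intervals throughout cover counting error only.

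The cells came from 1 young (6 months) and 1 old (24 months) INK-ATTAC mouse, neither of them treated. The INK-ATTAC transgene, carried by both animals, lets a stretch of the p16 promoter drive a caspase 8 that a drug can switch on. Digested bone and marrow had been depleted of lineage-positive blood cells and sorted for live CD45- cells, and each library paired 3′ mRNA counts with counts of an oligonucleotide-tagged CD24 antibody (CITE-seq). With 1 mouse per age, age, animal and library cannot be told apart, and no test between the ages was possible.

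Interleukin 6 is a secreted cytokine that signals through gp130 and STAT3, and in fibroblasts its gene is switched on by interleukin 1, TNF and related signals acting through NF-kB. Tnfaip6 encodes TSG-6, a secreted protein that binds hyaluronan and moves protein chains onto it, and Has1 encodes an enzyme of the plasma membrane that spins out hyaluronan, the large sugar polymer of soft connective tissue. Ptgs2 encodes cyclooxygenase 2, the inducible enzyme of prostaglandin synthesis. Ccl7 and Cxcl1 are chemokines that attract monocytes and neutrophils, and Plau encodes urokinase, which turns plasminogen into plasmin. In bone marrow such signals reach neighbouring blood-forming, osteoclast and vascular cells.

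Members were deep cells in both libraries. Young members held a median of 10467 UMIs and 2850 genes and old members 13074 and 3272, against medians of 6385 and 9711 UMIs over all kept cells. Mitochondrial transcripts made up a median of 2.66% and 2.25% of their UMIs. The member sums held 2622277 young and 1382964 old UMIs, and a total of 25 barcodes occurred in both libraries, none of which was a member in either. Scrublet predicted 13 young members (5.39%) and 1 old member (0.962%) as doublets, against 2.67% and 1.02% of all kept cells.

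Because a deep cell shows more genes, the rule was also applied after each cell had been thinned to 5000 UMIs, which left out 3661 young and 1208 old cells as too shallow. Members then made up 2.78% of young cells (2.39 to 3.21) and 1.55% of old cells (1.20 to 1.96). Among the same cells without thinning the shares were 3.42% and 2.16%. The young share lay above the old share in each of these counts. Without thinning, the intervals over the cells deep enough to be thinned were 2.99 to 3.90 and 1.75 to 2.63. As each share came from 1 mouse, the intervals hold no spread between animals and do not compare the ages.

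The rule genes are described first, as a description only, since they chose the members. Levels are CPM, the UMIs of a gene scaled to a fixed total of summed UMIs of a class in 1 mouse. The comparison cells were the Pdgfra+ cells that passed the same gates but held 0 to 3 rule genes, 5018 young and 2981 old. Il6 (ENSMUSG00000025746) stood at 659 CPM in young members and 824 CPM in old members, and at 10.0 and 17.7 CPM in the comparison cells. Tnfaip6 (ENSMUSG00000053475) stood at 2977 and 2676 CPM in members and at 62.2 and 69.6 CPM in the comparison cells. Both genes were thus raised to a like degree in either mouse.

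Ccl7 (ENSMUSG00000035373) reached 2672 CPM in young members and 1375 CPM in old members, against 40.1 and 34.6 CPM. Ptgs2 (ENSMUSG00000032487) reached 861 and 497 CPM, against 17.7 and 9.39 CPM. Plau (ENSMUSG00000021822) reached 746 and 350 CPM, against 13.0 and 6.81 CPM. These 3 genes stood higher in the young than in the old members. Has1 (ENSMUSG00000003665) reached 1441 and 1092 CPM, against 45.3 and 44.2 CPM.

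Cxcl1 (ENSMUSG00000029380), a neutrophil chemokine that the rule did not name, followed the same pattern. It stood at 7272 CPM in young members and 3493 CPM in old members, and at 174 and 184 CPM in the comparison cells, a difference of 5.35 and 4.21 on the log2(CPM + 5) scale. A single young member held a median of 48 Cxcl1 UMIs (quartiles 15 and 119) and a single old member 20 (5 and 72.5). It was found in 92.9% and 90.4% of members, and in 6.27% and 10.6% of the blood cells, which should lack it.

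The blood cells, used as a background, were cells without a Pdgfra UMI that held at least 2 UMIs of Cd79a, a B cell gene, or at least 10 of Ngp, a neutrophil gene. They numbered 367 and 94, with median depths of 4884 and 9219 UMIs. Their Il6 share was 0.545% in the young mouse and 0 of 94 cells in the old mouse (exact upper limit 3.85%), against 76.3% and 75% of members. The share of members with a UMI of the other rule genes ran from 63.5% for Ptgs2 to 98.3% for Tnfaip6 in the young mouse and from 62.5% to 97.1% for the same genes in the old mouse, and the highest blood cell shares among these genes were 21.3% for Tnfaip6 and 20.2% for Ptgs2, both in the old mouse.

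**Figure D1:**
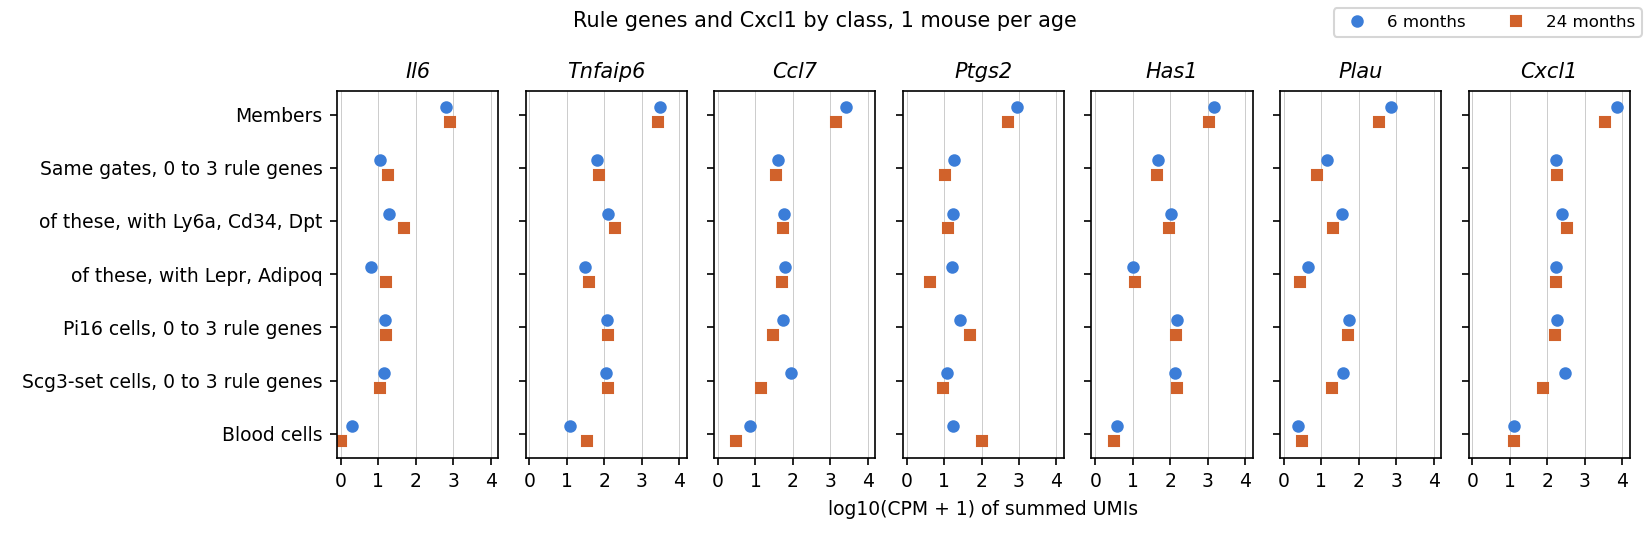
Levels of the 6 rule genes and of Cxcl1 as log10(CPM + 1) of summed UMIs (horizontal axis) in 7 classes of cells (rows), with a circle for the young and a square for the old mouse. In every panel both points of the members lie to the right of all other classes, and the blood cells hold the least of each gene except Ptgs2 in both mice and Plau in the old mouse.

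The programme was uneven within the members. The 25 young members with the most Ccl7 UMIs held 56.2% of all Ccl7 UMIs of the young members, and the 11 such old members held 65.4%. For Il6 these shares were 49.4% and 51.9%. Cxcl2, another neutrophil chemokine, was still more concentrated, with 69.9% and 97.0% of its UMIs in the top 25 and 11 cells and a UMI in 38.2% of young and 16.3% of old members. Nfkbia, in contrast, was found in 99.6% and 99% of members, with medians of 26 and 24 UMIs, and its top cells held 26.6% and 27.6%. Cxcl1 was less concentrated than Ccl7 and Cxcl2, with 34.1% and 39.9% of its UMIs in the top 25 and 11 cells. The Ccl7 and Cxcl2 UMIs thus sat to a large part in few cells, while Cxcl1 and Nfkbia were present in most members.

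Members held 4, 5 or 6 rule genes in 90, 84 and 67 young cells and in 59, 27 and 18 old cells. Just inside the limit, cells with 4 rule genes had 250 CPM of Il6 and 1657 CPM of Tnfaip6 in the young mouse and 610 and 1856 CPM in the old mouse. Just outside it, the 165 young and 121 old gated cells with 3 rule genes had 76.8 and 352 CPM in the young mouse and 213 and 374 CPM in the old mouse. Members with all 6 rule genes made up a larger part of the young than of the old set.

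To show the letters at the starts of these genes, the 250 bases before the annotated start were read for 4 rule genes, Cxcl1 and the NF-kB inhibitor gene Nfkbia, all with a match and all in the RefSeq promoter table (build GRCm38.p6, which has the coordinates of mm10). Capitals mark matches, on either strand, to the NF-kB consensus, to the AP-1 motif TGANTCA, to the C/EBP motif TTGCNCAA or to the CRE motif TGACGTCA. The stretches are the windows chr5:30012864-30013113 (plus strand, Il6), chr2:52037863-52038112 (plus, Tnfaip6), chr1:150099781-150100030 (plus, Ptgs2), chr17:17855189-17855438 (minus, Has1), chr5:90890995-90891244 (plus, Cxcl1) and chr12:55492648-55492897 (minus, Nfkbia), each written 5′ to 3′ along the gene.
Il6: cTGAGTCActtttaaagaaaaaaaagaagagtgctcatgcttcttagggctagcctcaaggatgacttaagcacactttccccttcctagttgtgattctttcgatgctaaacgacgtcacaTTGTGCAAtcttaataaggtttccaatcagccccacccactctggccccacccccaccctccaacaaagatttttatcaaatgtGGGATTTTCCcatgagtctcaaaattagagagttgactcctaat
Tnfaip6: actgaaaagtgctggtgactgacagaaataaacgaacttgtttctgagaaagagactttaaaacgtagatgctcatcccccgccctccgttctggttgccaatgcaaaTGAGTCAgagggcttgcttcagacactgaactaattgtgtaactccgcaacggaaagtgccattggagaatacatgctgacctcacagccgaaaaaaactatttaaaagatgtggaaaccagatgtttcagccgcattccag
Ptgs2: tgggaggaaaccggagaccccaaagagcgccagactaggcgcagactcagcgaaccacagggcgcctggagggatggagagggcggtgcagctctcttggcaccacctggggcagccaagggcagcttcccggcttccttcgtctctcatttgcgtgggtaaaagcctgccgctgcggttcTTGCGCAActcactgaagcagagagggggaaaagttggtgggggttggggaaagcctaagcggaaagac
Has1: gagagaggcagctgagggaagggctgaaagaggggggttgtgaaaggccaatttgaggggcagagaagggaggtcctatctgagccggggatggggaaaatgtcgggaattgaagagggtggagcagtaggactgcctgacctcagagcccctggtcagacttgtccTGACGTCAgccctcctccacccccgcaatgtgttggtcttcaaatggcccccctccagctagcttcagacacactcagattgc
Cxcl1: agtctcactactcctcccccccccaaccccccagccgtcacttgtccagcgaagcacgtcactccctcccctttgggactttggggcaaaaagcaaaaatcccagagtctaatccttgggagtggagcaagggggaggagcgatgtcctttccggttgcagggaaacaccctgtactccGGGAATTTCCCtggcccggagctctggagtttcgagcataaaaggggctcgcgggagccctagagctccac
Nfkbia: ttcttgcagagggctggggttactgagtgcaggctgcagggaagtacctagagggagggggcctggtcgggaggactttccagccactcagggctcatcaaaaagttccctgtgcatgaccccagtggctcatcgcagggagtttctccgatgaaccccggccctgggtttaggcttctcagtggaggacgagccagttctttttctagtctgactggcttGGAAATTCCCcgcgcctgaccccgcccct

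Il6 had 1 match to the NF-kB consensus, at 44 to 35 bases before its start, 1 C/EBP match at 128 to 121 and 1 AP-1 match at 249 to 243. The capitals of Cxcl1 are 2 overlapping NF-kB matches at 71 to 61, and Nfkbia had 1 NF-kB match at 29 to 20. Tnfaip6 had 1 AP-1 match, Ptgs2 1 C/EBP match and Has1 1 CRE match, so no motif was common to the 6 windows shown. Of 4 further genes read and not shown, Cxcl2 and 1 of the 2 windows of Tnfaip3 had NF-kB matches, and Ugdh and Hk2 had no match to any of the 4 motifs. Over all 27025 genes of the table, 4.46% had an NF-kB match in this window, 7.82% an AP-1 match, 2.99% a C/EBP match and 1.77% a CRE match. Of the 226 genes that were higher in members, 171 were in the table, and 12.9%, 12.9%, 7.02% and 8.19% of them had the respective match. Among the 9989 tested genes in the table these shares were 5.47%, 5.40%, 2.57% and 2.95%. A match is a description of letters and was not tested as a binding site.

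The next question was what kind of fibroblast carried the programme. Of the 12 fibroblast markers, 5 were higher in members than in the comparison cells, 1 was lower and 6 were neither. Higher and lower mean here at least 2-fold on the log2(CPM + 5) scale in both mice, among genes with at least 50 UMIs over both groups in each mouse. Dpt, a matrix protein of dermis-like connective tissue, stood at 1323 and 980 CPM against 423 and 289 CPM. Ly6a, the gene of the stem cell antigen Sca-1, stood at 1644 and 940 CPM against 636 and 325 CPM, and Cd34, a surface glycoprotein of adventitial fibroblasts, at 403 and 341 CPM against 168 and 75.8 CPM. Gsn and Mfap5, of actin severing and of elastic microfibrils, were the others, and Pdgfrb was the lower marker. Pi16 cells held still more of some of these transcripts, with ratios of members over Pi16 cells of -0.73 and -1.07 for Ly6a, -1.31 and -1.29 for Cd34 and -0.96 and -1.41 for Mfap5.

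All of Ly6a, Cd34 and Dpt were found in 82.6% of young members (77.2 to 87.1) and 71.2% of old members (61.4 to 79.6). Lepr and Adipoq, which mark marrow stroma, were found together in 4.56% (2.30 to 8.02) and 11.5% (6.11 to 19.3). The members were thus mostly Ly6a Cd34 Dpt fibroblasts by their transcripts, with a small part that held stromal transcripts, larger in the old mouse. Of the comparison cells 2004 of 5018 young and 1509 of 2981 old cells held Lepr and Adipoq, a part that was also larger in the old mouse. All of Ly6a, Cd34 and Dpt were found in 1181 and 461 of them. Markers of several other cells were low. Endothelial genes summed to 1.53 and 4.34 CPM with 3 of 5 at 0 in each mouse, T cell genes to 0.381 and 0 CPM, and macrophage genes to 109 and 10.8 CPM, against 62.8 and 59.9 CPM in the comparison cells, and the young value was nearly all Lyz2 at 108 CPM. Neutrophil genes summed to 14.5 and 70.9 CPM, against 1575 and 1889 CPM in the comparison cells, and erythroid genes to 32.0 and 80.3 CPM, against 2548 and 718 CPM. B lineage genes summed to 819 and 1025 CPM against 690 and 741 CPM, nearly all of it Ebf1, which stromal cells express too, and megakaryocyte genes to 149 and 53.5 CPM against 149 and 70.3 CPM. Ptprc, the CD45 gene, had 7 UMIs in young and 0 in old members. Chondrocyte genes were not lower in sum, at 2639 and 2372 CPM against 2168 and 2258 CPM, most of it Comp (2528 and 2142 CPM), a matrix gene of cartilage and tendon. Joint lining genes summed to 1366 and 3829 CPM against 2813 and 2879 CPM, mostly Prg4. The part of the young Lyz2 UMIs and of megakaryocyte transcripts in other values was not tested. The 12 fibroblast markers summed to 50624 and 49013 CPM in members, against 36491 and 46423 CPM in the comparison cells. The fibroblast label thus rests on the Pdgfra gate and on the expression of these markers. Only 5 of them were higher than in the comparison cells. None was higher within the Ly6a Cd34 Dpt cells or against Pi16 cells.

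The programme itself was not particular to cells inside the gates. Of the Pdgfra+ cells with at least 2 Pi16 UMIs, which mark a reservoir-type fibroblast, 19.6% of 626 young cells (16.6 to 23.0) and 19.3% of 399 old cells (15.5 to 23.5) held at least 4 rule genes. Among Pdgfra+ cells with at least 3 of the Scg3-set genes it was 13.9% of 490 (10.9 to 17.3) and 21.3% of 258 (16.5 to 26.8). Gated cells with Ly6a, Cd34 and Dpt reached 14.4% of 1380 (12.6 to 16.4) and 13.8% of 535 (11 to 17.1). These 3 fibroblast classes lay in a like range.

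Gated cells that did not hold all of Ly6a, Cd34 and Dpt reached 1.08% of 3879 (0.781 to 1.46) and 1.18% of 2550 (0.795 to 1.68), and those with Lepr and Adipoq 0.546% of 2015 (0.273 to 0.975) and 0.789% of 1521 (0.408 to 1.37). Among the blood cells it was 0 of 367 (exact upper limit 1.00%) and 0 of 94 (3.85%). With each cell thinned to 5000 UMIs the same 3 fibroblast classes lay above the Lepr Adipoq cells, with 14.1% and 10.7% in the Ly6a Cd34 Dpt cells, 16.3% and 14% in the Pi16 cells, 10.6% and 12.5% in the Scg3-set cells and 0.670% and 0.364% in the Lepr Adipoq cells. In the old mouse the Scg3-set cells then lay below the Pi16 cells, where they had been above them. The gates decided which programme-bearing cells became members. Of the 477 young and 254 old kept cells with at least 4 rule genes, 50.5% and 40.9% were members, and 142 and 82 of the others held too many Pi16 UMIs.

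**Figure D2:**
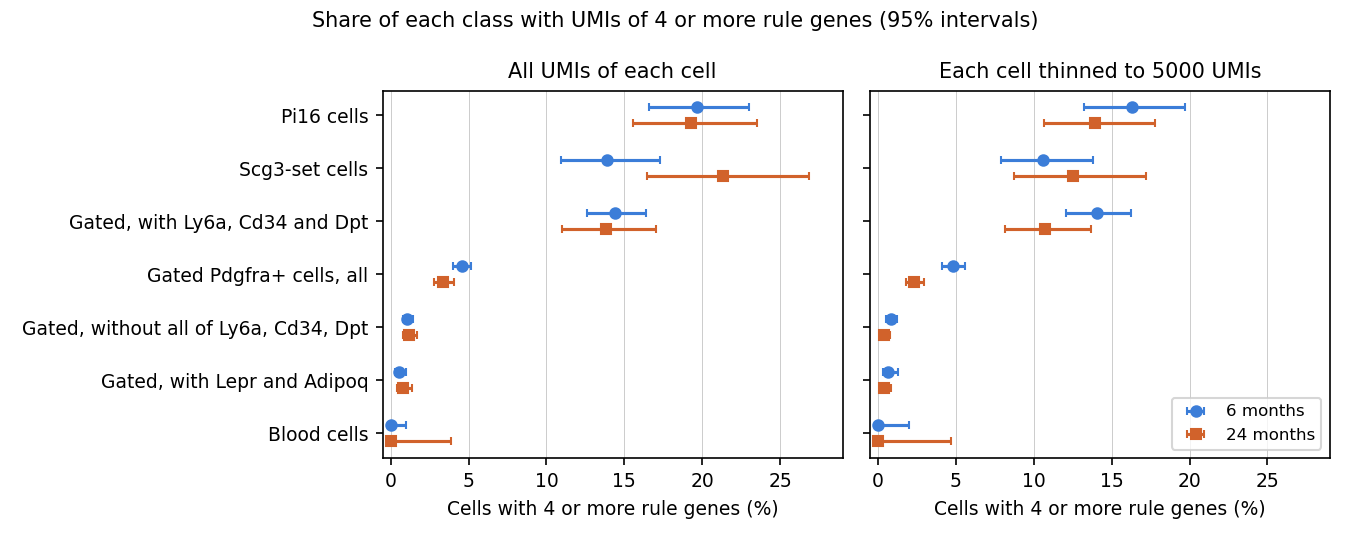
Share of cells with UMIs of 4 or more rule genes (horizontal axis, percent) in 7 classes (rows), at full depth (left) and with each cell thinned to 5000 UMIs (right), with exact 95% intervals. Circles are the young and squares the old mouse. Pi16 cells, Scg3-set cells and Ly6a Cd34 Dpt cells lie between 10.6% and 21.3%, and Lepr Adipoq cells and blood cells lie under 1%.

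Members were then compared with the comparison cells over all genes. As the cells were selected on transcripts of the same libraries, the counts describe the cells and are no test. Of 12926 genes kept by the filter, 226 were higher in members in both mice (1.75%) and 519 were lower (4.02%). The median log2 ratio over all of them was -0.32 in each mouse, and ratios are read beside it. With TMM factors, which remove that shift, 366 genes were higher and 316 lower.

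Other comparison cells gave other counts. Against Pi16 cells with 0 to 3 rule genes, 184 of 8725 genes were higher in members (2.11%) and 155 lower (1.78%). Within cells that held Ly6a, Cd34 and Dpt, members against cells with 0 to 3 rule genes, 150 of 9505 genes were higher (1.58%) and 70 lower (0.736%). This comparison, added after the data had been seen, sets members beside cells with the same 3 fibroblast transcripts. Of the 226 genes higher in members, 126 were also higher within the Ly6a Cd34 Dpt cells and 125 against the Pi16 cells, while 33 of the 519 lower genes were also lower within the Ly6a Cd34 Dpt cells. Genes too sparse to be tested in the second comparison are among those not shared.

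Some chemokine genes were higher in members and others lower. Of the 10 tested CXC chemokine genes 3 were higher in members (Cxcl1, Cxcl2, Cxcl10) and 2 lower. Cxcl2 stood at 1473 CPM in young members and 215 CPM in old members, against 42.6 and 25.6 CPM. Cxcl10, which attracts T cells, stood at 73.2 and 155 CPM, against 22.5 and 62.1 CPM. Cxcl12, the factor that holds blood stem cells in marrow, went the other way, at 2886 and 3519 CPM against 10605 and 10457 CPM. Within the Ly6a Cd34 Dpt cells its ratio was 0.35 and -0.22, so the gap was not seen there. Cxcl9, an interferon-inducible chemokine, was the other lower gene (-1.62 and -2.77), and Cxcl14 had ratios of -1.02 and -0.96. Within the Ly6a Cd34 Dpt cells none of the CXC genes was lower and 4 were higher.

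Of the 9 tested CC chemokine genes 4 were higher and none lower. Ccl2, the main monocyte chemokine, stood at 2415 and 1111 CPM against 109 and 107 CPM, and within the Ly6a Cd34 Dpt cells its ratio was 6.29 and 3.46. Ccl8 (ratios 2.79 and 1.80) and Ccl11 (1.56 and 2.72), which attracts eosinophils, were the others besides Ccl7. Ccl11 (0.06 and 0.82) and Ccl8 (1.61 and 0.77) did not pass 2-fold in both mice within the Ly6a Cd34 Dpt cells, while Ccl2 did. Ccl12 and Ccl20 had 0 UMIs in the members of both mice.

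Of the 12 tested genes of the IL-6 family 2 were higher, Il6 itself among them, and 1 was lower. The list medians were 0.73 and 0.86, beside -0.32 for all genes. Within the Ly6a Cd34 Dpt cells they were 0.13 and 0.39, beside -0.27. Lif, a relative of interleukin 6, was the other higher gene of the 12, at 24.4 and 23.1 CPM against 1.65 and 1.56 CPM. Lifr, the receptor chain for it, was lower, at 49.2 and 77.4 CPM against 288 and 393 CPM. The shared receptor chain Il6st (ratios 0.18 and 0.88) and the signal carrier Stat3 (0.58 and 0.84) stayed within 2-fold, and the oncostatin M receptor gene Osmr lay just inside it (0.95 and 0.99). Socs3, which restrains the same pathway, had ratios of 0.18 and 1.90.

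Genes of interleukin 1 and TNF, the signals that most often start such a programme, were near 0 in the members. The members held 2 young and 0 old Il1a UMIs, 1 and 2 of Il1b, and 1 and 0 of Tnf. Il1r1, the receptor for interleukin 1, was present at 193 and 191 CPM against 152 and 130 CPM. Irak3, a kinase-like brake on that receptor, was the 1 higher gene of the 14 tested (ratios 1.44 and 1.30), and Il1b and the antagonist gene Il1rn were lower. Over all tested genes 1.75% were higher and 4.02% lower. Within the Ly6a Cd34 Dpt cells none of 11 tested genes of this list was higher or lower, where 1.58% and 0.736% of all genes were. Against Pi16 cells none of 13 was higher and 1 was lower, where 2.11% and 1.78% of all genes were.

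Feedback genes and targets of NF-kB were raised more widely within the Ly6a Cd34 Dpt cells than against all comparison cells. Of 19 tested, 9 were higher and none lower, with medians of 1.09 and 1.45, and within the Ly6a Cd34 Dpt cells 13 of 17 were higher, with medians of 1.91 and 1.67. Nfkbia, the inhibitor that NF-kB itself induces, stood at 2853 and 2067 CPM against 473 and 346 CPM. Nfkb1, a subunit of the factor, stood at 990 and 621 CPM against 85.0 and 75.5 CPM, and Tnfaip3, the enzyme A20 that ends the signal, at 243 and 192 CPM against 22.4 and 23.3 CPM. Nfkbiz, Bcl3, Birc3, Icam1, Zc3h12a and Tnfaip2 were the others. Vcam1, an adhesion gene of marrow stroma, had ratios of -0.39 and -0.73 against the comparison cells and of 1.91 and 1.23 within the Ly6a Cd34 Dpt cells, so its direction turned with the comparison cells.

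Of the 14 tested hyaluronan genes 7 were higher and none lower. The 7 include the rule genes Has1 and Tnfaip6, which were high by selection, and the other 5 were Ugdh, Has2, Ptx3, Cd44 and Vcan. Ugdh makes the UDP-glucuronic acid from which hyaluronan is built, and it stood at 1605 and 963 CPM against 104 and 90.6 CPM. Gfpt2 and Uap1, enzymes on the way to the other building block, stood outside this list and among the 15 genes with the highest ratios, at 609 and 466 CPM against 48.1 and 38.9 CPM for Gfpt2 and at 693 and 460 CPM against 85.9 and 66.6 CPM for Uap1. Has2, another hyaluronan synthase, stood at 79.7 and 62.2 CPM against 10.9 and 13.0 CPM, but against Pi16 cells its ratio was -0.029 in the young mouse. Has3 had 0 UMIs in the members of both mice.

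Some partners of hyaluronan were also higher than in the comparison cells. Ptx3, a pentraxin that TSG-6 binds, stood at 387 and 589 CPM against 74.2 and 105 CPM, and Cd44, the main hyaluronan receptor, at 258 and 268 CPM against 72.5 and 84.8 CPM. The Cd44 ratios were smaller within the Ly6a Cd34 Dpt cells (1.04 and 0.78) and against Pi16 cells (1.30 and 0.68), under 2-fold in the old mouse. Vcan, a proteoglycan that binds hyaluronan, had ratios of 1.57 and 1.37, which shrank to 0.23 and 0.11 within the Ly6a Cd34 Dpt cells and turned to -0.44 and -1.02 against Pi16 cells. Ptx3 was found in only 34.9% and 39.4% of members. Cemip and Cemip2, which take part in hyaluronan breakdown, had ratios of -1.56 and 0.51 and of -2.14 and -0.93, so neither passed 2-fold in both mice. Within the Ly6a Cd34 Dpt cells Cemip was lower (-1.13 and -1.37).

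Of the 15 tested prostaglandin genes only the rule gene Ptgs2 was higher. Ptges, the inducible synthase of prostaglandin E2, had ratios of -0.14 and 1.01. Ptgis, the prostacyclin synthase, was lower at 72.5 and 78.1 CPM against 178 and 198 CPM, and so were Hpgd, which breaks prostaglandins down (ratios -2.76 and -1.17), and the receptor gene Ptgfr (-1.69 and -1.16). Within the Ly6a Cd34 Dpt cells none of these 3 passed 2-fold in both mice. Plau was the only higher gene of the 6 tested in its own system. Its receptor gene Plaur lay near 2-fold (0.98 and 1.21), and its inhibitor gene Serpine2 was lower, at 863 and 1059 CPM against 3485 and 2969 CPM.

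Among proteases, the aggrecanase genes Adamts1 (ratios 1.14 and 1.46) and Adamts4 (1.47 and 2.44) were higher, 2 of the 16 tested. Mmp3 (0.38 and 0.33) and Mmp2 (0.32 and 0.26) stayed within 2-fold, and the collagenase gene Mmp13 was lower at 59.9 and 339 CPM against 780 and 731 CPM.

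Immediate-early genes, which respond to a stimulus or to tissue handling within minutes, were higher in most but not all cases. Of 24 tested, 15 were higher and none lower, with medians of 1.26 and 1.67. Against Pi16 cells 15 of the 24 were higher as well, and within the Ly6a Cd34 Dpt cells 13 were. Myc (ratios 2.86 and 2.77), Fosl1 (3.98 and 2.65), Nr4a2 (3.44 and 2.41), Atf3 (2.38 and 2.62), Ier3 (2.47 and 2.30) and Fosl2 (2.70 and 2.27) had the largest ratios in the mouse nearer 0. Of genes often read as signs of cell dissociation, Junb (1.54 and 1.71), Egr1 (1.07 and 1.62), Atf3, Dusp1 (1.13 and 1.24) and Zfp36 (1.38 and 1.82) were higher, and Fos (-0.48 and 1.13), Fosb (-0.060 and 1.57), Jun (-0.53 and 0.87) and Ier2 (0.20 and 0.20) did not pass 2-fold in both mice. Of 12 heat shock genes 1 was higher, the chaperone partner Bag3 (1.98 and 2.83), and Hspa1a had ratios of -0.27 and 0.83. The medians of this list were -0.04 and 0.95, beside -0.32 for all genes. Within the Ly6a Cd34 Dpt cells they were 0.36 and 0.70, beside -0.27. Within the Ly6a Cd34 Dpt cells Dnajb1 and Hspa8 were higher as well. The part of tissue digestion and sorting in these levels was not tested.

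Metal and oxidative stress genes were higher in 6 of 13. The metallothionein Mt1 stood at 5656 and 9335 CPM against 945 and 962 CPM and Mt2 at 2490 and 3187 CPM against 341 and 256 CPM. Srxn1 (2.48 and 2.83), Txnrd1 (1.32 and 1.18), Sqstm1 and Atf4 were the others, while Hmox1 (-0.72 and 0.69), Nqo1 (-0.29 and -0.03) and Gclm (-0.61 and -0.56), targets of the oxidant sensor NRF2, were not.

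Of 17 tested interferon response genes none was higher and 1 was lower, Iigp1, at 19.4 and 57.1 CPM against 91.5 and 224 CPM. Over all genes 1.75% were higher and 4.02% lower, so these counts do not set the list apart. The list medians were -0.69 and -0.62, beside the -0.32 of all genes. Within the Ly6a Cd34 Dpt cells they were -0.66 and -0.23, beside -0.27. Isg15 (-0.63 and -0.38) did not pass 2-fold in either mouse.

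Outside the lists, the 15 genes with the highest ratios in the mouse nearer 0 were Hk2, Gfpt2, Csrnp1, Kdm6b, Gm12840, Ifrd1, Nr4a3, Eif4e, Rcan1, Phlda1, Uap1, Gem, Maff, Ifi205 and Pde4b. Hk2, the inducible hexokinase of glycolysis, stood at 534 and 766 CPM against 43.3 and 56.8 CPM. Kdm6b, which removes a repressive mark from histone H3, stood at 810 and 628 CPM against 67.2 and 55.8 CPM, and Eif4e, the cap-binding factor of translation, at 859 and 482 CPM against 59.4 and 56.2 CPM. All 15 were also higher within the Ly6a Cd34 Dpt cells. Cebpb, the C/EBP factor of acute responses, was not in a list and was noted after its values were seen, with ratios of 1.91 and 1.74 and of 2.65 and 2.11 within those cells.

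Part of the genes higher in members were also higher in other fibroblasts with the programme. Pi16 cells with at least 4 rule genes (123 young, 77 old) were compared with Pi16 cells with fewer, and 115 of 8486 genes were higher (1.36%). The same was done in Scg3-set cells (68 and 55), where 101 of 7920 were higher (1.28%). Of the 150 genes higher within the Ly6a Cd34 Dpt cells, 138 were tested in Pi16 cells and 101 of them were higher there too, and 137 were tested in Scg3-set cells, where 86 were higher. A total of 79 genes were higher in all 3 classes, and 73 without the rule genes. As an example, Hk2 stood at 479 and 793 CPM in Pi16 cells with the programme and at 39.4 and 64.4 CPM in those without, and at 348 and 425 CPM against 48.4 and 38.1 CPM in Scg3-set cells. The classes hold different cells of the same 2 mice, so they share animals and libraries.

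Genes that the rule did not use were then followed over the number of rule genes in gated Pdgfra+ cells, from 0 (3061 young and 1672 old cells) to 6 (67 and 18). Cxcl1 went from 81.2 CPM in cells with none to 787 CPM with 3, 4173 CPM with 4 and 11202 CPM with 6 in the young mouse, and from 93.9 to 940, 2437 and 6166 CPM in the old mouse. Nfkb1 went from 75.3 and 71.2 CPM with none to 163 and 123 CPM with 3 and reached 1503 and 1229 CPM with 6. Mt1 was higher at each step in both mice, from 717 and 697 CPM to 8208 and 13954 CPM. Ly6a took most of its gain before the limit in the young mouse and about as much after it in the old mouse, going from 388 and 180 CPM with none to 1488 and 675 CPM with 3 and 1788 and 1190 CPM with 6.

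Fos and Atf3 peaked in between. Fos reached 4243 CPM with 3 rule genes in the young and 7178 CPM with 4 in the old mouse, and stood at 733 and 1382 CPM with 6, below its level in cells with none (1984 and 1560 CPM). Atf3 peaked at 1463 CPM with 5 and at 1636 CPM with 4. Lepr went down from 835 and 976 CPM to 55.0 and 185 CPM. Cells with more rule genes were also deeper up to 3 rule genes, with median depths from 5891 to 10315 UMIs in young cells and from 9029 to 14360 UMIs in old cells, and with 4 to 6 the medians lay between 8996 and 12180 and between 12297 and 14790 UMIs.

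**Figure D3:**
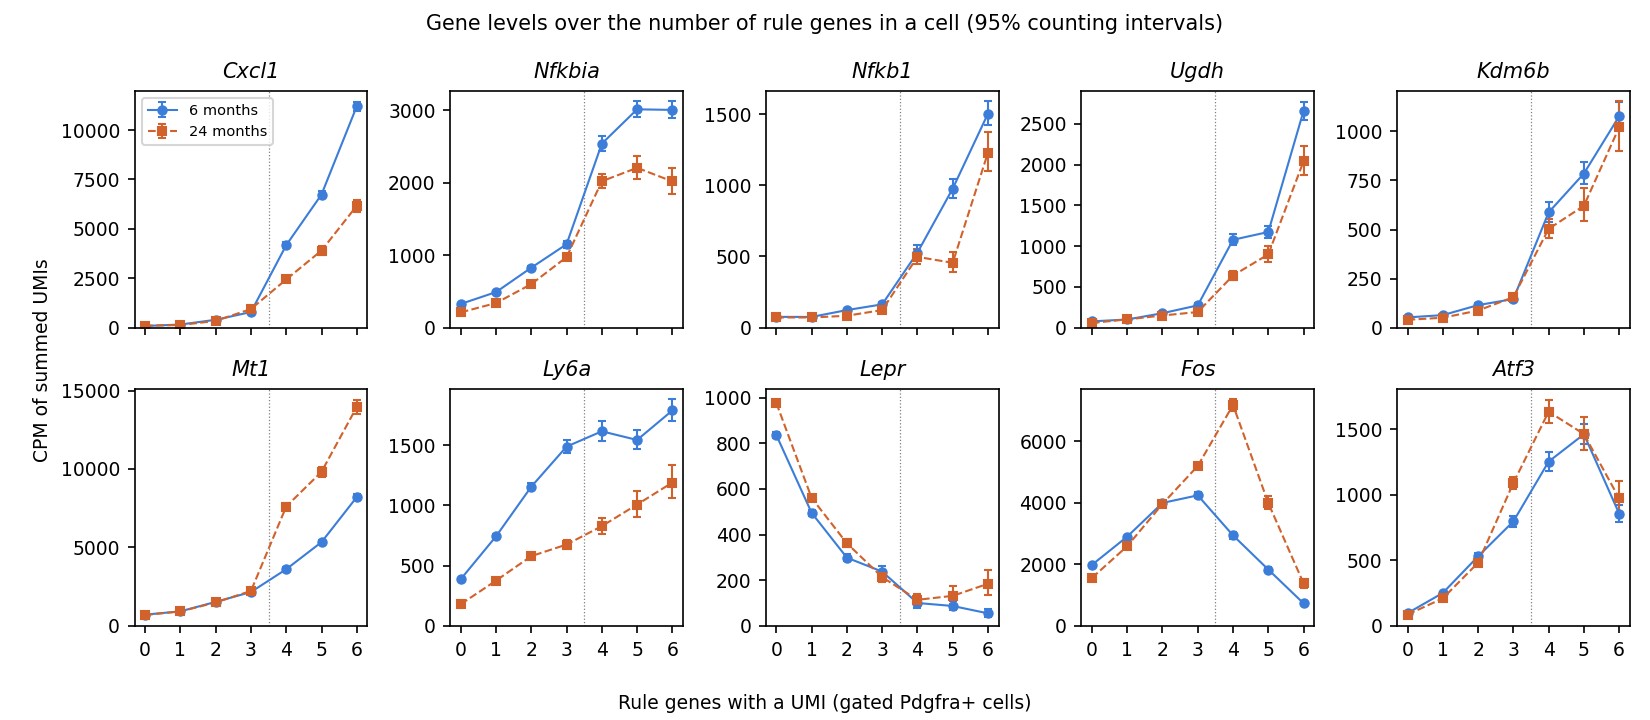
CPM of summed UMIs (vertical axes) for 10 genes outside the rule, over the number of rule genes detected in gated Pdgfra+ cells (horizontal axis), with exact Poisson intervals. The dotted line marks the limit of at least 4 rule genes. Nfkb1, Ugdh, Kdm6b and Cxcl1 climb beyond the limit in both mice, Lepr declines, and Fos is lower at 6 rule genes than at 0.

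Genes of marrow stroma and bone were lower in members. Of the 7 stromal markers 6 were lower. Adipoq stood at 34.7 and 103 CPM against 500 and 895 CPM, Kitl, the stem cell factor, at 69.0 and 156 CPM against 689 and 851 CPM, and Lepr at 81.6 and 132 CPM against 643 and 717 CPM. Foxc1, a transcription factor of those cells, had ratios of -0.37 and -0.75 and was higher within the Ly6a Cd34 Dpt cells (1.05 and 1.01). All 7 osteoblast markers were lower, among them Bglap, the osteocalcin gene, at 167 and 99.1 CPM against 1017 and 3140 CPM, and the transcription factor Runx2 at 37.8 and 34.0 CPM against 189 and 202 CPM. Pi16 cells held less of some of these transcripts than members did, with ratios of members over Pi16 cells of 2.93 and 2.29 for Bglap and of 0.038 and 1.10 for Kitl. Of the 137 Bglap UMIs of old members 119 lay in the 1 predicted doublet, and without doublets, an alternative added after the data had been seen, the Bglap ratios over Pi16 cells were 4.04 and -0.27.

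The 10 lowest genes outside the lists were Ackr4, Gdpd2, Cdh2, Adgrf5, Kng1, Tnc, Grem1, Angptl7, Chrdl1 and Gm4951. Tnc, the matrix protein tenascin C, stood at 67.5 and 94.7 CPM against 774 and 761 CPM, and Grem1, a BMP antagonist of stroma, at 13.7 and 19.5 CPM against 197 and 180 CPM. Of these 10, only Angptl7 was lower by 2-fold in both mice within the Ly6a Cd34 Dpt cells (-2.29 and -2.90). Of the 519 lower genes 33 were also lower there, but fewer genes were tested within those cells (9505 against 12926). A gene too sparse to be tested there could not be among the 33. The number thus does not show how many of the lower genes were level within those cells.

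Few of the listed matrix genes differed between members and other cells. Of 20 fibrillar and matrix genes 1 was higher (Col14a1, 1.58 and 1.20) and 1 lower (Col12a1, -2.46 and -1.89), and within the Ly6a Cd34 Dpt cells none passed in either direction. Over all genes only 1.58% were higher and 0.736% lower there, so the count does not set this list apart. Its medians there were -0.24 and -0.36, beside -0.27 in each mouse for all genes. Of 24 fibroblast subset genes 12 were higher against the comparison cells and only Ackr3, a scavenger receptor for CXCL12, was so within the Ly6a Cd34 Dpt cells (1.16 and 1.37). Pdpn, podoplanin, had ratios of 2.55 and 1.98, and of 1.46 and 0.97 within those cells. Among the gate genes, Pdgfra stood at 388 and 430 CPM in members and 410 and 370 CPM in the comparison cells, Pi16 at 8.77 and 10.1 CPM, held low by the gate, and Tppp3 at 346 and 345 CPM against 130 and 84.8 CPM. Scg3 had ratios of 0.68 and 2.39, Sema3e of 0.42 and 0.42, Islr2 of 1.20 and -0.17 and Ociad2 of -0.21 and 0.14.

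**Figure D4:**
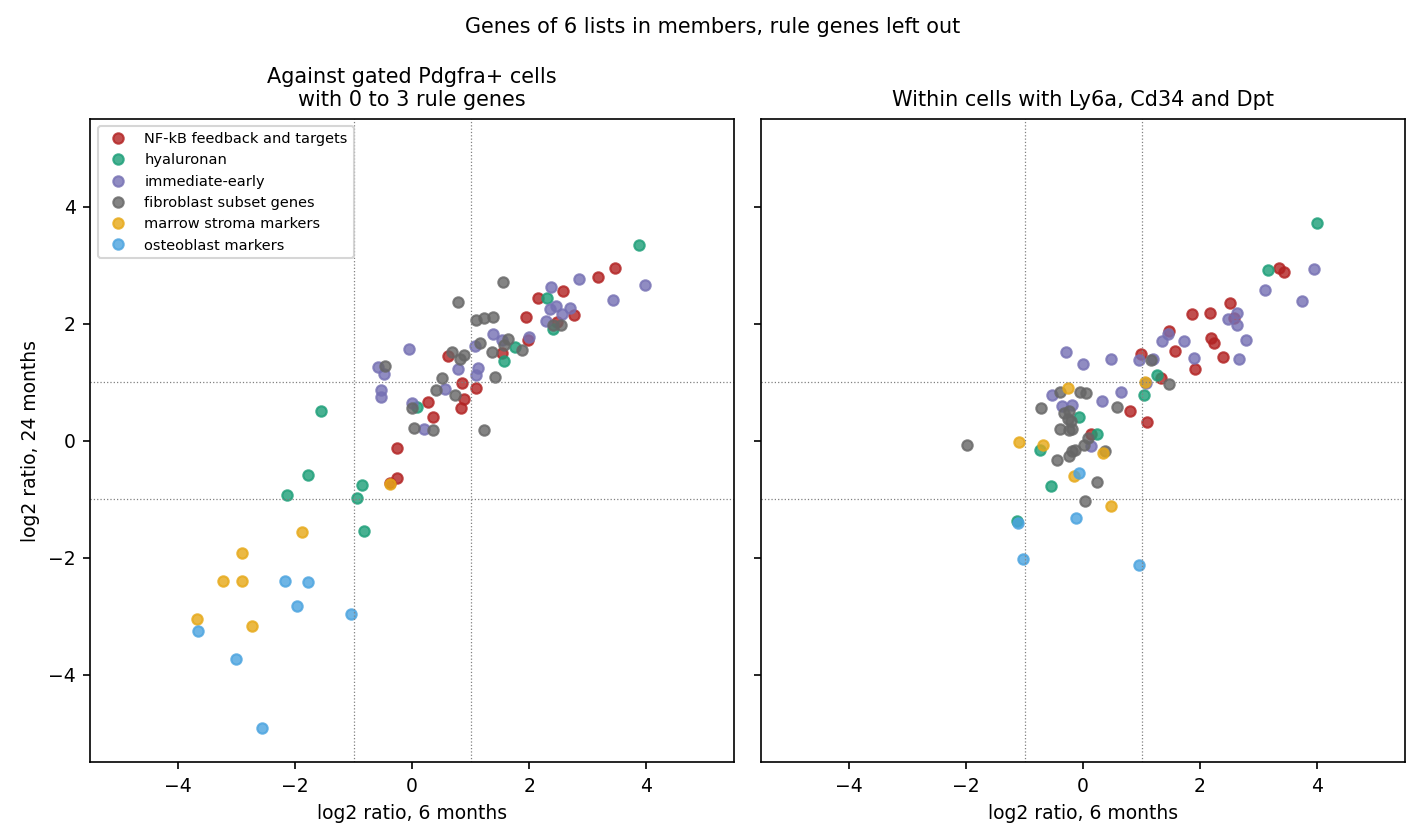
Log2 ratio on the log2(CPM + 5) scale in the young mouse (horizontal) and the old mouse (vertical) for tested genes of 6 lists, rule genes left out, against all comparison cells (left) and within cells with Ly6a, Cd34 and Dpt (right). Dotted lines mark 2-fold. Stromal and osteoblast genes lie at the lower left of the left panel, and in the right panel NF-kB, hyaluronan and immediate-early genes make up nearly all points above 2-fold in both mice.

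The study was about senescent cells and CD24, so genes of both were read in the members. Of 16 tested genes that the study used for senescence, 4 were higher (Il6, which the rule had selected, Ccl2, Cxcl1 and Cdkn1a) and 4 lower (Bcl2, Cd24a, Mki67 and Il1b). Within the Ly6a Cd34 Dpt cells 4 of 14 tested were higher and only 1, Bcl2, was lower. Cd24a had ratios of 0.05 and -1.24 there. Cdkn1a, the p21 gene, stood at 611 and 503 CPM against 204 and 162 CPM. Cdkn2a, which encodes both p16 and p19Arf, transcripts that the 3′ counts do not tell apart, had 1 UMI in young and 4 UMIs in old members (0.381 and 2.89 CPM), against 2.90 and 12.6 CPM in the comparison cells. Bcl2 was lower at 15.3 and 14.5 CPM against 47.8 and 51.6 CPM, also within the Ly6a Cd34 Dpt cells, but not against Pi16 cells (-0.21 and -0.40). Trp53 stayed within 2-fold of the comparison cells (-0.22 and -0.51). The cycling gene Mki67 had 38 and 5 UMIs in the members, with ratios of -1.03 and -2.40.

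CD24 protein, which had no part in the rule, was not higher on members than on the comparison cells. The median antibody count was 74 in young members (quartiles 47 and 109) and 84.5 in old members (59 and 129), against 86.5 and 89 in the comparison cells. Ly6a Cd34 Dpt cells with 0 to 3 rule genes had medians of 72 (49 and 116) and 71 (50 and 112). Old members lay above those cells at each quartile and young members near them, which was not tested. Above thresholds of 312 and 396 antibody UMIs, which split the kept cells of each library, lay 15 of 241 young members (6.22%, 3.53 to 10.1) and 4 of 104 old members (3.85%, 1.06 to 9.56). The shares in the comparison cells were 8.73% (7.96 to 9.54) and 6.24% (5.40 to 7.17), and the intervals overlapped in each mouse. Per 1000 RNA UMIs, members held 7.51 and 6.50 antibody UMIs and comparison cells 13.9 and 9.31. Ly6a Cd34 Dpt cells with 0 to 3 rule genes held 10.3 and 6.41, so the old members were not below them. This measure falls with depth, and members had median depths of 10467 and 13074 RNA UMIs against 6530 and 10087 in the comparison cells. The mRNA, Cd24a, stood at 12.6 and 2.89 CPM against 32.7 and 23.9 CPM.

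The last comparison set old against young members, 1 mouse each. Of 7035 genes with at least 50 UMIs over both, 148 were at least 2-fold higher in the old members (2.1%) and 90 lower (1.28%), with a median difference of -0.02. Of the rule genes, Il6 differed by 0.32 and Tnfaip6 by -0.15 on the log2 scale, while Plau differed by -1.08 and Ccl7 by -0.96. Chemokines went both ways, with Cxcl1 at -1.06, Ccl2 at -1.12, Ccl8 at -1.84 and Cxcl2 at -2.75, and with Cxcl10 at 1.03 and Cxcl5 at 2.33. Among members with exactly 4 rule genes, a comparison added after the data had been seen, Cxcl1 stood at 4173 and 2437 CPM, Plau at 298 and 234 CPM and Il6 at 250 and 610 CPM.

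The 10 genes highest in old members were Msmp, Sfrp2, Thbs1, Igfbp3, Smoc2, Igkc, Lcn2, Mmp13, Thbd and Cxcl5. All 283 Msmp UMIs of the old members came from 1 cell, and the young members had 0. Sfrp2, a secreted WNT modulator, stood at 15.3 CPM in young and 488 CPM in old members, with a UMI in 2.90% and 15.4% of them, and Thbs1, thrombospondin 1, at 9.92 and 281 CPM, in 7.47% and 24.0%. In the comparison cells the same differences were 0.32 and 0.17 on the log2 scale. Both rested on old members with 4 rule genes, since among members with at least 5 the old ratio over the comparison cells was -1.52 for Sfrp2 and -1.42 for Thbs1. Thbd, thrombomodulin, stood at 46.5 and 268 CPM and was broader, with a UMI in 29% and 51.9% of members.

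Igkc, the immunoglobulin kappa chain, stood at 4.58 and 49.2 CPM in members and at 6.27 and 2823 CPM in the comparison cells, so the old library held far more of it in the comparison cells than in members. Of the members 1.66% and 47.1% had an Igkc UMI. Socs3, from the lists, stood at 392 and 1631 CPM (difference 2.04, counting interval 1.95 to 2.16) and was found in 70.1% and 94.2% of members. Of the 24 immediate-early genes 5 were higher in old members, Klf6 (1.98), Fosb (1.55), Fos (1.51), Jun (1.41) and Egr2, and 2 lower, Fosl1 and Nr4a2. Of the 17 tested NF-kB genes none passed 2-fold in either direction. Over all genes 2.1% were higher and 1.28% lower, so this count does not set them apart.

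Among the 10 lowest in old members were Gm8797, Lyz2, Barx1, Ctla2a, Pax9, Ppbp, Gm42679, Rgs5 and Car3. Gm8797 stood at 250 and 13.7 CPM, and its difference of -3.77 was matched by -3.56 in the comparison cells. Barx1 and Pax9, homeobox and paired box factors of connective tissue, stood at 104 and 5.78 CPM and at 97.6 and 5.78 CPM. They were found in 51.9% and 50.6% of young members but in 4.81% and 6.73% of old members, and in the comparison cells their differences were -1.21 and -0.93. Lyz2, a myeloid gene, stood at 108 and 4.34 CPM, in 33.2% and 5.77%.

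Rgs5 and Car3 rested on few cells, with a UMI in 1.66% and 0.830% of young members, 4 cells and 2 cells. The joint-lining gene Prg4 stood at 983 and 3255 CPM, but the 11 old members with the most held 80.5% of its UMIs. The stromal markers Adipoq (1.45) and Kitl (1.12) were higher in old members, beside the larger share of old members with Lepr and Adipoq UMIs, and their part in the other differences was not tested.

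**Figure D5:**
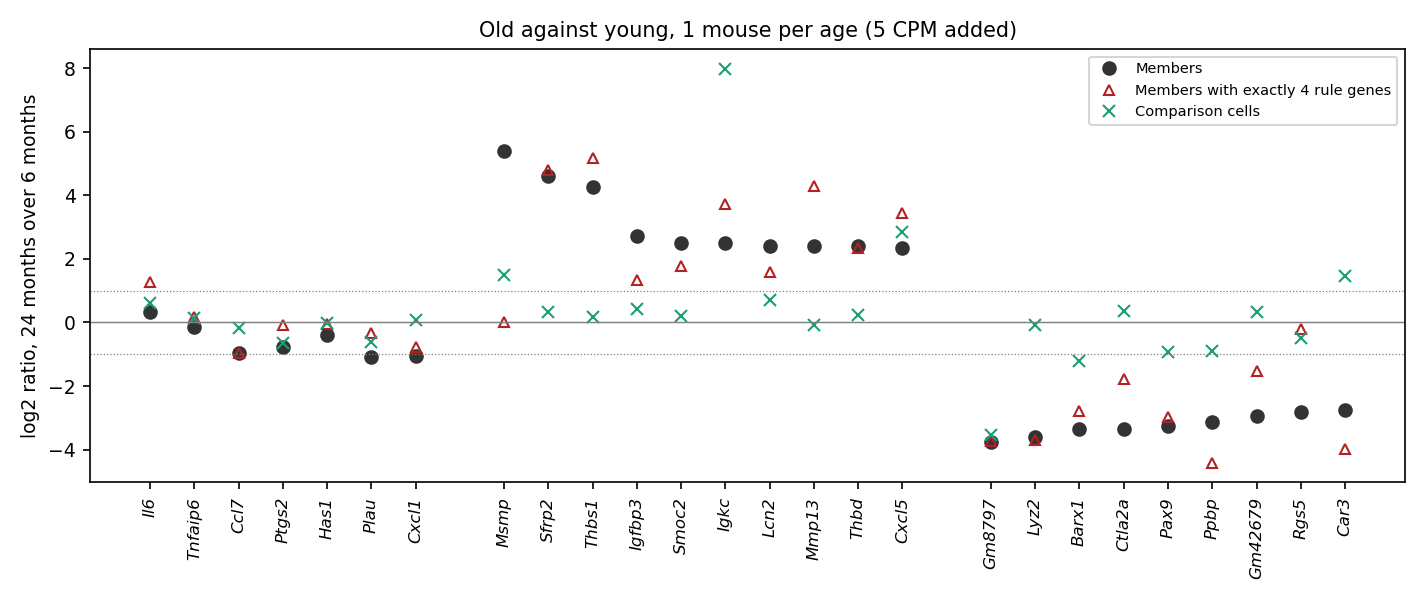
Log2 ratio of the old over the young mouse, with 5 CPM added (vertical axis), for the rule genes and Cxcl1, the 10 highest genes and 9 of the 10 lowest genes of old members. Filled circles are all members, open triangles members with exactly 4 rule genes and crosses the comparison cells. Msmp had 0 UMIs in the young members, so its point depends on the CPM added, and Gm8797 lies near -3.77 in members and comparison cells alike.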

How the data were processed

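The deposited files hold raw counts, whole numbers of UMIs per gene and of CD24 antibody tags per cell barcode, which the authors made with Cell Ranger (6.1.1 in the matrix header) on build mm10. The submitters' processing notes also name R 4.0.3 and Seurat 4.0. The young library held 11371 barcodes and 82675434 RNA UMIs, and the old library 6729 and 68580402. Cells were kept with at least 200 genes and at most 20% mitochondrial UMIs. Predicted doublets (Scrublet in scanpy 1.11.5) were kept and removed as an alternative.

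UMIs were summed per class and mouse (Python 3.11.15, numpy 2.4.6, scipy 1.17.1, pandas 2.3.3) and given as CPM, and ratios as log2 with 5 CPM added. A gene was called higher or lower at 2-fold in both mice, with at least 50 UMIs over both groups in each mouse. For age it was at 2-fold between the mice, with at least 50 UMIs over both. With 1 mouse per age, and members chosen on the same transcripts, no test was run. Age contrasts share no cells, while all comparisons with members share the members. Intervals are exact (Clopper-Pearson or Poisson, 95%) and cover counting error only. The CD24 threshold was Otsu's on log(1 + antibody count), with a Gaussian mixture (scikit-learn 1.9.0) as an alternative. Thinning was 1 draw per cell. TMM factors came from edgeR 4.0.16 in R 4.3.3, used for an alternative scaling only. Figures were drawn with matplotlib 3.10.9. The summing and calling steps were tested on simulated data.

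The members, the gene lists and the comparisons were chosen with earlier results of these data known. Named genes were the rule, gate and study genes, per list up to 6 genes with the largest ratio in the mouse nearer 0 and those on which the biology of the list turns, the 15 highest and 10 lowest genes outside the lists, and the 10 highest and 10 lowest by age, of which 1 is not reported here. The comparisons within Ly6a Cd34 Dpt cells, within Pi16 and Scg3-set cells and among members with exactly 4 rule genes were added after seeing the data. Upstream sequences were matched by symbol to a RefSeq promoter table of build GRCm38.p6, which held 5 of the 7 rule genes and Cxcl1.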

Additional observations from a re-analysis of the deposited data

Results flagged for a closer look

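In 3 genes the difference between members and comparison cells ran in opposite directions in the 2 mice, by at least 2-fold each on the log2(CPM + 5) scale. Thbs1, the matrix glycoprotein thrombospondin 1, had ratios of -3.08 (young) and 1.01 (old). Sfrp2, a secreted modulator of WNT signals, had ratios of -2.68 and 1.61. Ctla2a, a cysteine protease inhibitor gene, had ratios of 1.71 and -1.99. The difference between the mice was not tested, as each age was 1 animal. A UMI of Thbs1 was found in 7.47% of young and 24.0% of old members, one of Sfrp2 in 2.90% and 15.4%, and one of Ctla2a in 9.13% and 2.88%. Over all 12926 genes, 6 had opposite signs beyond 2-fold in this way.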

How the results depend on the processing

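Several settings moved the counts of genes. With TMM factors 366 genes were higher and 316 lower in members, and with 1 CPM added in place of 5 the lower count was 1378. Against Pi16 cells 155 genes were lower, and within the Ly6a Cd34 Dpt cells 150 were higher and 70 lower. Weighting the comparison cells to the depth of the members gave 219 higher and 476 lower genes, and removing doublets 231 and 588. Between the ages, no filter on low counts gave 264 genes higher and 160 lower in old members, and 1 CPM added gave 145 lower. Requiring 5 rule genes left 1.5% of young and 0.803% of old cells as members, and thinning gave 2.78% in the young mouse. The CD24+ shares stayed between 4.15% and 7.28% in the young and between 3.85% and 4.44% in the old members. The causes of these changes were not tested.

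For the 162 named genes, 2422 ratios under the alternatives stayed near the first value, 417 moved, and 77 that had been past 2-fold in that mouse changed sign or reached 0. Another 81 changes of sign were of ratios within 2-fold, among them Vcam1 and Foxc1 within the Ly6a Cd34 Dpt cells (1.91 and 1.23, and 1.05 and 1.01) and old Cemip both there (-1.37) and with at least 5 rule genes (-0.49). Of the ratios past 2-fold, those that changed sign with at least 5 rule genes were old Sfrp2 -1.52 and old Thbs1 -1.42, and without doublets old Bglap over Pi16 cells did (-0.27). Against Pi16 cells the log2 ratios past 2-fold that changed sign were Ackr3 -0.12 and -0.26, Adipoq 1.07 (old), Bglap 2.93 and 2.29, Ccl11 -0.17 (young), Cd34 -1.31 and -1.29, Cdh2 0.40 and 0.50, Cemip 0.11 (young), Cemip2 0.037 (young), Col14a1 -0.69 (old), Cxcl12 0.84 and 0.85, Cxcl14 0.52 (young), Cxcl9 1.40 (old), Dpt -0.12 (old), Gdpd2 0.34 (old), Gm4951 0.23 (old), Grem1 1.03 (old), Gsn -0.43 (young), Has2 -0.029 (young), Hpgd 1.43 (old), Igfbp3 1.22 (old), Iigp1 0.30 (old), Il1rn 1.09 (old), Irak3 -0.064 (old), Islr2 -1.61 (young), Kitl 0.038 and 1.10, Kng1 0.27 and 0.29, Lepr 0.18 (old), Ly6a -0.73 and -1.07, Mfap5 -0.96 and -1.41, Mmp13 2.35 (old), Msmp 0 (young), Pdgfrb 0.013 and 0.076, Ptgis 0.91 (old), Runx2 0.61 and 0.046, Scg3 -0.27 (old), Serpine2 0.30 (old), Tnc 0.18 and 0.26, Tppp3 -0.53 and -0.54 and Vcan -0.44 and -1.02, young before old where a pair is given. Within the Ly6a Cd34 Dpt cells they were Bglap 0.96 (young), Cd24a 0.054 (young), Cd34 -0.39 (young), Cdh2 0.15 (young), Col14a1 -0.34 (old), Cxcl12 0.35 (young), Cxcl9 0.79 (young), Gsn -0.25 (young), Hpgd 0.27 (old), Igkc 0.25 (old), Iigp1 0.66 (old), Kitl 0.90 (old), Lcn2 0.13 (young), Ly6a -0.14 and -0.16, Mfap5 -0.18 (old), Ngp 0.32 and 1.00, Ppbp 0.10 (old), Sfrp2 -2.03 (old), Thbs1 -0.53 (old) and Tppp3 -0.092 (young).

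No paired analysis was possible because each age was 1 mouse and the results come from no test. Old members numbered 104 cells with 1382964 UMIs and young members 241 with 2622277, so the old values carry wider counting intervals.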

Other observations

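Other listed secreted factors were read in the members as well. C3, the central complement protein, was the 1 higher gene of 10 tested complement genes, at 1270.3 and 2403 CPM against 494 and 503 CPM, and within the Ly6a Cd34 Dpt cells its ratios were 0.16 and 1.11. Of 16 growth factor genes 3 were higher (Fgf10, Tgfb2 and Inhba) and 2 lower (Bmp4 and Kitl). Within the Ly6a Cd34 Dpt cells none of 15 tested growth factor genes was higher or lower. Over all genes only 1.58% were higher and 0.736% lower there, so this count does not set the list apart. Hp, the haptoglobin gene, was lower against all comparison cells, at 305 and 307 CPM against 2403 and 1668 CPM. Hgf, the hepatocyte growth factor, had ratios of 0.37 and 1.60.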
